A study of Homo sapiens with 6 samples.

Results

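The ERK pathway feedback genes described here were taken by name, 10 of the 57905 genes in the count table, as the transcriptional output and negative feedback of RAS-ERK signalling. They are the phosphatase genes *DUSP4*, *DUSP5* and *DUSP6*, the Sprouty genes *SPRY1*, *SPRY2* and *SPRY4*, the Sprouty-related genes *SPRED1* and *SPRED2*, and the ETS factor genes *ETV4* and *ETV5*. All 10 were among the 14178 genes with enough counts to be tested. Their levels were compared in RT4, an established line of papillary, non-muscle invasive bladder cancer, after depletion of *LEADR*, the spliced long non-coding RNA of *MIR205HG*. The LEADR-KD group consisted of 3 samples of wild-type RT4 cells given the *LEADR* siRNA, and the Scramble group of 3 samples of the same cells given a commercial negative control siRNA. Each siRNA was used at 100 pmol for 48 h with the same lipid reagent, and poly(A) RNA was sequenced. A single cell line and a single *LEADR* siRNA stand behind every value. The methods of the study speak of biological replicates without saying whether these were separate cultures. A p value here sets the group difference against the spread between the 3 samples of each group, estimated with information shared over genes. Part of this spread may be technical.

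Growth factor receptors load RAS with GTP, RAS activates the kinases RAF, MEK and ERK in turn, and ERK then phosphorylates transcription factors. Among the genes switched on are several that damp the cascade: DUSP proteins remove the activating phosphates of ERK, and Sprouty and SPRED proteins act further up, near RAS and RAF. *ETV4* and *ETV5* are commonly read as output genes of the pathway, and in urothelial tumours the receptor FGFR3 is one of its best known activators.

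The siRNA and the places in these genes that share letters with it are shown first, because short matches of this kind were present in 3 of the 10 genes. The strand listed by the submitters has the same sequence as *MIR205HG*, and its complement pairs with that RNA. Capitals mark bases 2 to 8, counted from the 5′ end of each strand.
LEADR siRNA, listed strand: aACUGGGUgcuuuauauagga
LEADR siRNA, complementary strand: uCCUAUAUaaagcacccaguu
On GRCh37, also called hg19, the listed strand lies at the junction of exons 2 and 3 of MIR205HG-201, with 20 bases at chr1:209602734-209602753 and 1 base at position 209603770, and 13 of 17 annotated isoforms hold it.

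Bases 2 to 8 of the listed strand pair with ACCCAGT, which occurred in the annotated 3′ untranslated regions (UTRs) of *SPRED1*, *SPRED2* and *SPRY4*, and bases 2 to 8 of the complementary strand pair with ATATAGG, which occurred in that of *SPRED1* alone among the 10. The sites are shown as 22 bases of the gene's own strand in GRCh37, with the match in capitals.
SPRED1, chr15:38646291-38646297, plus strand: agttaacatACCCAGTttctta
SPRED2, chr2:65538892-65538898, minus strand: ggtgtaaatACCCAGTgtgctt
SPRY4, chr5:141691602-141691608, minus strand: ggaaacttgACCCAGTggcaag
SPRED1, chr15:38645982-38645988, plus strand: ttgctggctATATAGGaaaatg
None of the 3 ACCCAGT sites was followed by an A, whereas the ATATAGG site was. ACCCAGT occurred in 11.8% of the 12086 tested protein-coding genes with an annotated 3′ UTR, and ATATAGG in 7.90%. The shorter match CCCAGT was present in 4 of the 10 genes, *DUSP5* being the addition, and in 38.1% of all. The median 3′ UTR length was 2172 bases for the 10 genes and 1348 bases for all tested genes, and the longest of the 10 was that of *SPRED1*, at 5585 bases. A match describes the letters only, and whether either strand acted through these sites was not tested.

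The deposited counts summed to between 15706033 and 18960822 per library, and the counts of the 10 genes lay between 113 (*SPRY2*, Scramble 1) and 1779 (*SPRED2*, Scramble 2). Levels are given below as CPM, the count of a gene relative to its library's total, with the TMM scaling of edgeR (the trimmed mean of M values). The targeted gene *MIR205HG* had 113, 211 and 101 counts in LEADR-KD 1, 2 and 3, against 511, 337 and 346 counts in Scramble 1, 2 and 3, a log2 fold change of -1.47 (SE 0.26, adjusted p = 0.00180 by edgeR's quasi-likelihood test with Benjamini-Hochberg adjustment). Mitochondrial genes took 10.8% of counts in LEADR-KD 1 and 11.9% in Scramble 1, and 3.06% to 5.73% in the other 4 libraries. The 16 epithelial and urothelial marker genes summed to 8843 to 9426 CPM in LEADR-KD and 7541 to 8262 CPM in Scramble. Taken singly, 3 of the 16 were higher (18.75%) and 2 lower (12.5%) at an adjusted p under 0.05, and 11 did not pass. Of all tested genes, 12.2% were higher and 12.1% lower. The 9 fibroblast markers summed to 18.4 to 25.7 CPM in LEADR-KD and 26.4 to 32.1 CPM in Scramble, with *COL1A2*, *DCN*, *PDGFRA*, *PDGFRB*, *FAP* and *THY1* at 0 in every library. The 4 endothelial markers summed to 2.55 to 4.46 CPM in LEADR-KD and 6.99 to 10.2 CPM in Scramble (*KDR* and *TEK* at 0). Most of the endothelial sum was *VWF*, at a mean of 3.71 CPM in LEADR-KD and 8.28 CPM in Scramble. Most of the fibroblast sum was *COL3A1*, at a mean of 19.8 CPM in LEADR-KD and 27.3 CPM in Scramble. The summed level of 13 interferon-stimulated genes was 465, 589 and 783 CPM in LEADR-KD 1, 2 and 3, against 274, 155 and 474 CPM in Scramble 1, 2 and 3. The part of any of these in the results below was not tested.

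Of the 10 genes, 3 were higher in *LEADR*-depleted cells, 1 was lower and 6 did not pass an adjusted p of 0.05. *DUSP4*, *ETV4* and *ETV5* rose and *SPRED2* fell. Across all tested genes 12.2% were called higher and 12.1% lower, so 1 lower gene of 10 was near the background share. The 3 LEADR-KD libraries lay all above the 3 Scramble libraries for the same 3 genes and all below for *SPRED2* alone, while this was so for 19.9% of all tested genes in the upward direction and 19.9% in the downward direction. The median log2 fold change was 0.30 over the 10 genes and -0.01 over all tested genes, and the median size of the change, whatever its sign, was 0.39 and 0.25. Counts and medians of this kind describe the genes and are no test of them as a list. In bulk RNA, a change in the cells that express a gene and a change in RNA per cell cannot be told apart.

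**Figure D1:**
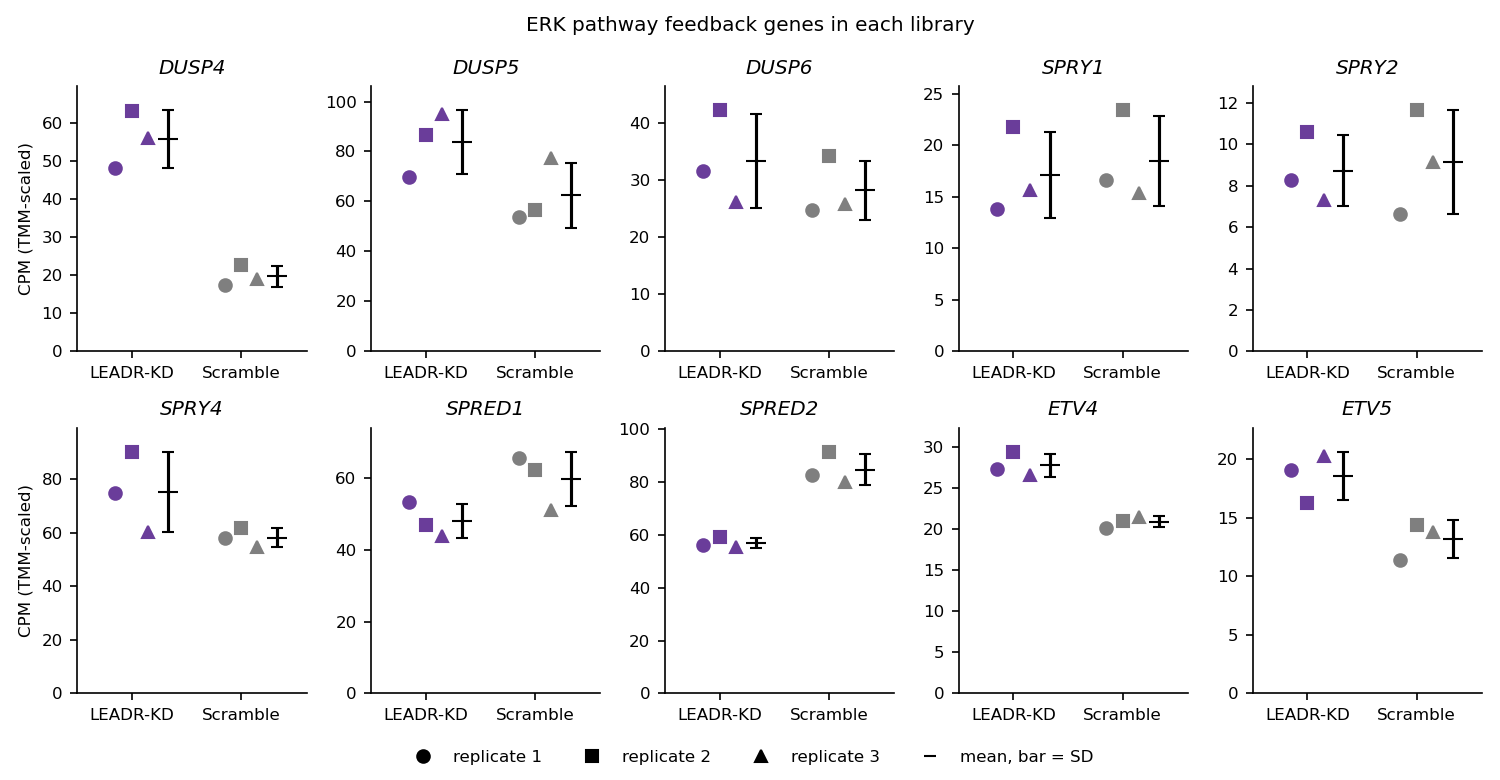
Level of each of the 10 genes in each library, in TMM-scaled CPM, with LEADR-KD in purple, Scramble in grey, marker shapes for the replicate number and a bar for the mean and SD (n = 3). The groups are apart for DUSP4, SPRED2, ETV4 and ETV5 and overlap for the other 6 genes.

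*DUSP4*, which encodes a nuclear phosphatase of ERK and other MAP kinases, changed most. Its level was 48.0, 63.1 and 55.9 CPM in LEADR-KD 1, 2 and 3, against 17.4, 22.7 and 18.9 CPM in Scramble 1, 2 and 3. The lowest LEADR-KD library was above the highest Scramble library, and library 2 was the highest in both groups. The mean was 55.7 ± 7.58 CPM in LEADR-KD and 19.6 ± 2.74 CPM in Scramble (SD, n = 3 each), a fold of 2.83 and a log2 fold change of 1.5 (SE 0.13, 95% interval 1.21 to 1.80, adjusted p = 1.93e-05 by edgeR). The size of this change exceeded that of 98.6% of the tested genes, and *DUSP4* was the sole member of the 10 past a log2 fold change of 1 upwards, where 1.64% of all tested genes were called. The call held in each of 15 alternatives, with log2 fold changes between 1.23 and 1.62. The gene lies on chromosome 8 of hg19 at 29190581 to 29208185, on the minus strand.

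*DUSP5* encodes a phosphatase that binds ERK in the nucleus, and its level was 69.8, 86.7 and 94.9 CPM in LEADR-KD 1, 2 and 3, against 53.7, 56.4 and 77.3 CPM in Scramble 1, 2 and 3. The groups overlapped, since Scramble 3 lay above LEADR-KD 1, and library 3 was the highest of each group. The means of 83.8 ± 12.8 CPM in LEADR-KD and 62.5 ± 12.9 CPM in Scramble gave a log2 fold change of 0.43 (SE 0.15, 95% interval 0.10 to 0.75), which did not pass (adjusted p = 0.0553 by edgeR). It did pass with DESeq2 (adjusted p = 0.0208), with no filter on low counts (0.000772), without Scramble 3 (0.00623), without LEADR-KD 1 (0.0173) and without both libraries numbered 1 (0.0368). *DUSP5* also passed with the replicate number as a block (adjusted p = 0.000462 by edgeR). *DUSP6*, whose product is the cytoplasmic phosphatase most selective for ERK, had 31.7, 42.3 and 26.1 CPM in LEADR-KD 1, 2 and 3, against 24.8, 34.2 and 25.8 CPM in Scramble 1, 2 and 3. Library 2 stood highest in both groups and the groups overlapped. The log2 fold change was 0.24 (SE 0.18, 95% interval -0.15 to 0.62, adjusted p = 0.375 by edgeR), and *DUSP6* passed in 0 of 15 alternatives.

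The Sprouty proteins are ERK-induced inhibitors that hold back signalling between receptors and RAF, and none of their genes passed. *SPRY4*, the most abundant of the 3 per unit of length, had 74.9, 90.1 and 60.3 CPM in LEADR-KD 1, 2 and 3, against 58.0, 61.6 and 54.6 CPM in Scramble 1, 2 and 3. LEADR-KD 1 and 2 lay above all Scramble libraries, whereas LEADR-KD 3 was just under Scramble 2. The means were 75.1 ± 14.9 CPM in LEADR-KD and 58.1 ± 3.54 CPM in Scramble, with a log2 fold change of 0.37 (SE 0.13, 95% interval 0.09 to 0.65, adjusted p = 0.0580 by edgeR). Leaving out LEADR-KD 3 brought the adjusted p to 0.00994, with a log2 fold change of 0.51, and the gene also passed with DESeq2 (0.0308) and with no filter on low counts (0.00541). With the replicate number as a block, *SPRY4* passed at an adjusted p of 0.00316 by edgeR.

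*SPRY1* had 13.8, 21.8 and 15.6 CPM in LEADR-KD 1, 2 and 3, against 16.7, 23.4 and 15.3 CPM in Scramble 1, 2 and 3. *SPRY2*, the lowest of the 10 in mean FPKM in LEADR-KD although its libraries overlapped those of *ETV5*, had 8.27, 10.6 and 7.31 CPM in LEADR-KD 1, 2 and 3, against 6.66, 11.7 and 9.13 CPM in Scramble 1, 2 and 3. For both genes library 2 was the highest of its group and the groups overlapped. The log2 fold change was -0.11 for *SPRY1* (SE 0.20, 95% interval -0.54 to 0.32, adjusted p = 0.723 by edgeR) and -0.07 for *SPRY2* (SE 0.22, 95% interval -0.55 to 0.41, adjusted p = 0.855 by edgeR). These intervals reach well to both sides of 0, so neither equality nor a change was shown.

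SPRED proteins sit at the membrane and bring the RAS inhibitor neurofibromin to RAS. *SPRED2*, on the minus strand of chromosome 2 at 65537985 to 65659771 (hg19), fell, with 56.3, 59.2 and 55.3 CPM in LEADR-KD 1, 2 and 3, against 82.5, 91.3 and 80.1 CPM in Scramble 1, 2 and 3. Every LEADR-KD library was below every Scramble library, and the 3 LEADR-KD libraries were close together. The means were 56.9 ± 2.0 CPM in LEADR-KD and 84.6 ± 5.91 CPM in Scramble, a fold of 0.673 and a log2 fold change of -0.57 (SE 0.09, 95% interval -0.76 to -0.38, adjusted p = 0.000715 by edgeR). It passed in each of 15 alternatives, with log2 fold changes between -0.62 and -0.51. Its ACCCAGT site starts 1737 bases after the stop codon, in a 3′ UTR of 2650 bases.

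*SPRED1*, the gene mutated in Legius syndrome, had 53.2, 46.9 and 43.8 CPM in LEADR-KD 1, 2 and 3, against 65.6, 62.2 and 51.2 CPM in Scramble 1, 2 and 3. Library 1 was the highest of each group, and the groups overlapped because Scramble 3 lay below LEADR-KD 1. The means of 48.0 ± 4.82 CPM in LEADR-KD and 59.7 ± 7.55 CPM in Scramble gave a log2 fold change of -0.32 (SE 0.12, 95% interval -0.57 to -0.06), which did not pass (adjusted p = 0.0679 by edgeR). Leaving out Scramble 3 or LEADR-KD 1 brought *SPRED1* past the threshold (adjusted p = 0.0244 and 0.0374), as did scaling counts by library totals only (0.0396). *SPRED1* passed as well with the replicate number as a block (adjusted p = 0.00571 by edgeR). It holds 1 match to each siRNA strand, 2426 and 2117 bases after its stop codon.

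*ETV4* and *ETV5* encode ETS transcription factors of the PEA3 group, which the repressor CIC holds down until ERK signalling relieves it. *ETV4*, on chromosome 17 at 41605212 to 41656988, had 27.3, 29.4 and 26.6 CPM in LEADR-KD 1, 2 and 3, against 20.1, 21.0 and 21.5 CPM in Scramble 1, 2 and 3. The groups did not overlap, and the libraries within each lay closer together than for most of the other genes, with the highest at 1.11 times the lowest in LEADR-KD and 1.07 times in Scramble. The means were 27.7 ± 1.46 CPM in LEADR-KD and 20.9 ± 0.687 CPM in Scramble, with a log2 fold change of 0.41 (SE 0.11, 95% interval 0.17 to 0.65, adjusted p = 0.0177 by edgeR). The call was lost without LEADR-KD 2 (adjusted p = 0.0719), without both libraries numbered 1 (0.0502) and with library totals only (0.0806). The gene *DHX8* overlaps *ETV4* on the opposite strand, with 1759, 1777 and 1663 counts in LEADR-KD 1, 2 and 3, against 1870, 1992 and 1643 counts in Scramble 1, 2 and 3. No source used here states whether counting used the strand, and reads in the overlap could be shared between the genes.

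*ETV5*, on chromosome 3 at 185764097 to 185828107, had 19.0, 16.3 and 20.3 CPM in LEADR-KD 1, 2 and 3, against 11.4, 14.4 and 13.8 CPM in Scramble 1, 2 and 3. The groups did not overlap, although LEADR-KD 2 and Scramble 2 were near each other. The means were 18.5 ± 2.05 CPM in LEADR-KD and 13.2 ± 1.59 CPM in Scramble, with a log2 fold change of 0.49 (SE 0.14, 95% interval 0.18 to 0.80, adjusted p = 0.0277 by edgeR). This was the least stable of the 4 calls. It was lost without LEADR-KD 1 (adjusted p = 0.0586), LEADR-KD 3 (0.0984) or Scramble 1 (0.0860), without both libraries numbered 1 (0.120), with library totals only (0.0866), and with limma on log2(FPKM + 1) (0.0512) or log2(FPKM + 0.1) (0.0527). The genes *DGKG* and ETV5-AS1, which overlap *ETV5*, had at most 2 counts in any library. AC005592.2 overlaps *SPRY4*, AC012370.2 overlaps *SPRED2* and RP11-392O1.4 overlaps *ETV4*, with at most 13, 4 and 0 counts in any library.

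**Figure D2:**
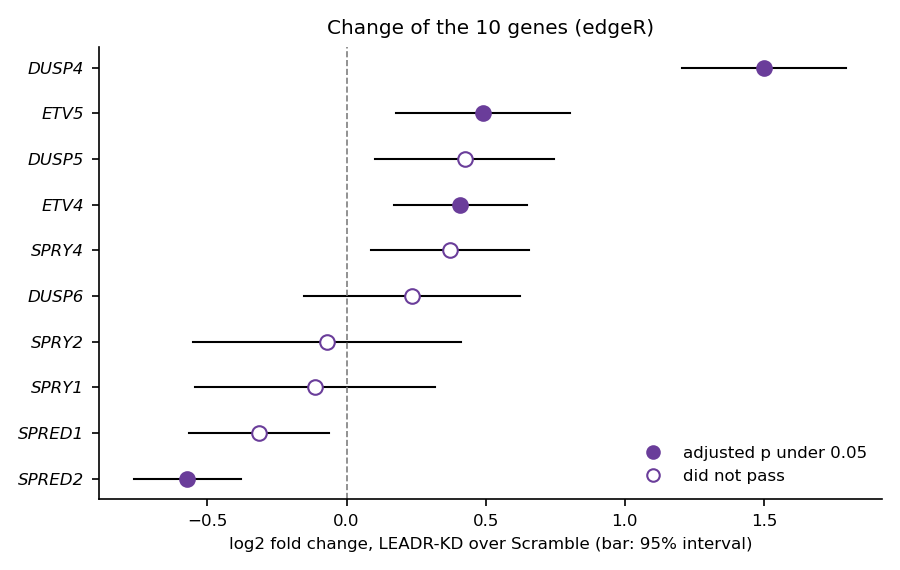
Log2 fold change of the 10 genes, LEADR-KD over Scramble, with 95% intervals from edgeR and filled points for an adjusted p under 0.05. DUSP4 stands apart at 1.5, ETV4 and ETV5 lie at 0.41 and 0.49, and SPRED2 at -0.57.

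With both libraries numbered 1 left out, those with over 10% mitochondrial counts, 2 genes were higher, *DUSP4* and *DUSP5*. *DUSP5* was gained there (adjusted p = 0.0368 by edgeR), and *ETV4* (0.0502) and *ETV5* (0.120) were lost. *SPRED2* stayed the 1 lower gene. The position of single libraries was shared by many of the 10 genes. Library 2 was the highest of both groups for 6 of them, which were *DUSP4*, *DUSP6*, *SPRY1*, *SPRY2*, *SPRY4* and *SPRED2*. The spread within a group was widest for *SPRY2*, where the highest Scramble library was 1.75 times the lowest, and for *DUSP6*, where the highest LEADR-KD library was 1.62 times the lowest.

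**Figure D3:**
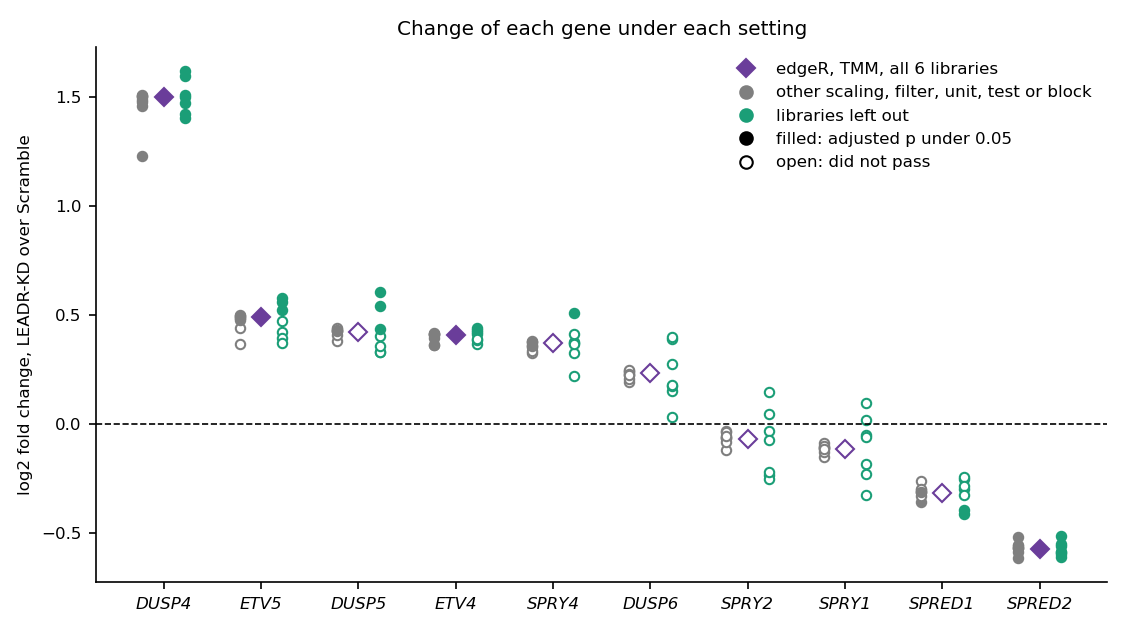
Log2 fold change of each gene with edgeR on all 6 libraries (purple diamonds), under other processing settings (grey) and with libraries left out (green), filled where the adjusted p was under 0.05. DUSP4 and SPRED2 are filled throughout, DUSP6, SPRY1 and SPRY2 are open throughout, and the other 5 genes change between filled and open.

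Levels of different genes were set side by side in FPKM, a fragment count divided by gene length and by a constant of the library. *DUSP5* was the most abundant of the 10 in both groups, at 32.0 ± 4.8 FPKM in LEADR-KD and 23.6 ± 4.86 FPKM in Scramble (SD, n = 3 each). In LEADR-KD cells it was followed by *SPRY4* at 12.6, *SPRED2* at 11.0, *ETV4* at 7.67, *DUSP4* at 7.65, *DUSP6* at 7.18, *SPRED1* at 5.79, *SPRY1* at 4.30, *ETV5* at 3.19 and *SPRY2* at 2.65 mean FPKM. In Scramble cells the order after *DUSP5* was *SPRED2* at 16.3, *SPRY4* at 9.70, *SPRED1* at 7.15, *DUSP6* at 6.05, *ETV4* at 5.74, *SPRY1* at 4.62, *SPRY2* at 2.75, *DUSP4* at 2.68 and *ETV5* at 2.25 mean FPKM.

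*DUSP4* was thus 5th of 10 in LEADR-KD and 9th in Scramble, while *SPRED2* was below *SPRY4* in mean FPKM in LEADR-KD and above it in Scramble. Most neighbours in the order did not differ beyond their spread over libraries. In LEADR-KD the libraries of neighbours did not overlap between *DUSP5* and *SPRY4*, *SPRED2* and *ETV4*, or *SPRY1* and *ETV5*. In Scramble they did not overlap between *DUSP5* and *SPRED2*, *SPRED2* and *SPRY4*, *SPRY4* and *SPRED1*, or *SPRY1* and *SPRY2*.

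**Figure D4:**
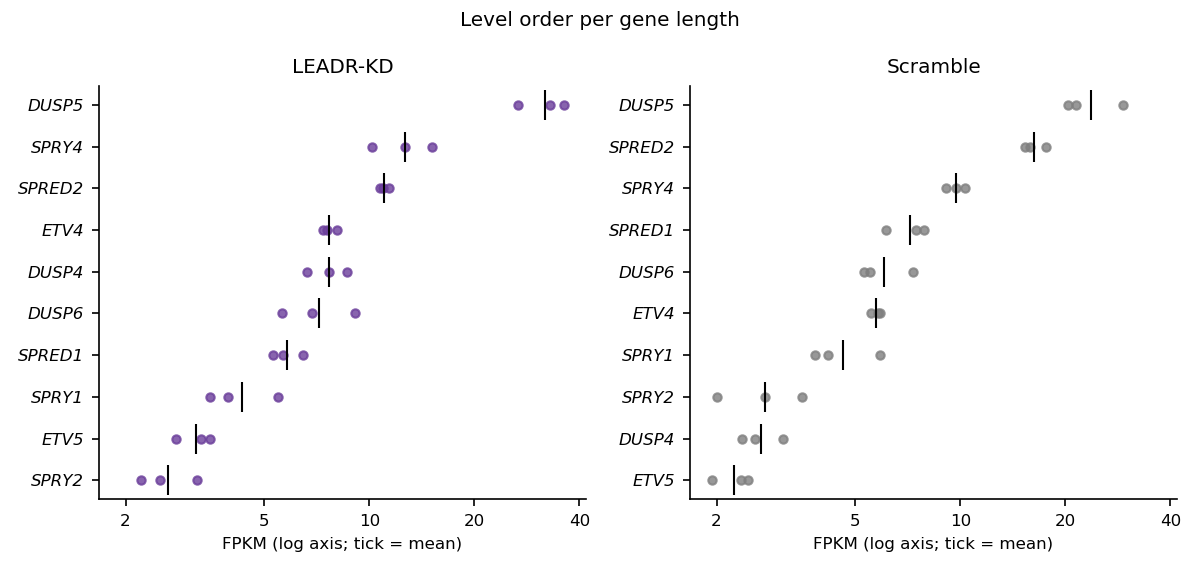
FPKM of the 10 genes in the 3 libraries of LEADR-KD (left, purple) and Scramble (right, grey), on log axes, in the order of the group's mean, which a tick marks. DUSP5 is the highest in both groups, and DUSP4 is 5th in LEADR-KD and 9th in Scramble.

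Added up by family, the 3 DUSP genes reached 40.2, 50.7 and 49.5 FPKM in LEADR-KD 1, 2 and 3, against 28.0, 31.8 and 37.3 FPKM in Scramble 1, 2 and 3. *DUSP4* made up 16.5%, 17.1% and 15.5% of this sum in LEADR-KD 1, 2 and 3, against 8.47%, 9.74% and 6.89% in Scramble 1, 2 and 3, so the larger part of the summed transcripts was *DUSP5* in both groups. The 2 SPRED genes summed to 17.4, 17.1 and 16.0 FPKM in LEADR-KD 1, 2 and 3, against 23.7, 25.0 and 21.5 FPKM in Scramble 1, 2 and 3. The groups were apart for both sums, although those of *DUSP5* alone overlapped. Of single tested genes, 19.9% were apart upwards and 19.9% downwards. The 2 ETV genes summed to 10.9, 10.9 and 10.8 FPKM in LEADR-KD 1, 2 and 3, against 7.47, 8.24 and 8.24 FPKM in Scramble 1, 2 and 3, and were apart as well. The 3 Sprouty genes gave 18.7, 23.8 and 16.3 FPKM in LEADR-KD 1, 2 and 3, against 15.9, 19.7 and 15.7 FPKM in Scramble 1, 2 and 3, and overlapped. No test was run on these sums, which are led by the most abundant gene of each family.

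Promoter windows of 300 bases (RefSeq, GRCh38.p14, lying mostly before the annotated start) were matched for 6 of the 10 genes, *DUSP6*, *SPRED1*, *SPRED2*, *SPRY1*, *SPRY2* and *SPRY4*. The CIC octamer, TGAATG followed by A or G and then A on either strand, was in none of their windows and in 2.63% of all 35116 windows. The 6 genes had 10 windows between them. The ETS core CCGGAA, on either strand, was in a single window each of *SPRY1* and *SPRY2*, and in 17.2% of all windows. The 3 genes called higher had no matched window.

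The wider pathway was described by 7 lists that held 164 genes, each counted once, of which 139 were tested. Some genes are in several lists and enter the counts of each list that holds them. Calls were made for 23 genes upwards (16.6%) and 27 downwards (19.4%), and the other 89 did not pass, with a median log2 fold change of 0.05. These shares stand beside 12.2% and 12.1% for all tested genes, and no list was tested as a whole. Among 28 other ERK feedback and target genes, 7 rose (25.0%), 5 fell (17.9%) and the median was -0.07. *ERRFI1*, which encodes an inhibitor of the EGF receptor, had 41.0, 62.5 and 51.0 CPM in LEADR-KD 1, 2 and 3, against 20.4, 25.0 and 20.7 CPM in Scramble 1, 2 and 3 (log2 fold change 1.22, adjusted p = 0.000193 by edgeR). *PLAUR*, the urokinase receptor gene, rose by 1.37 and *SH2B3*, an adaptor that damps cytokine receptors, by 0.82 on the log2 scale. *DUSP7*, which encodes a cytoplasmic ERK phosphatase related to *DUSP6*, moved against *DUSP4*, with 9.83, 10.2 and 9.0 CPM in LEADR-KD 1, 2 and 3, against 18.5, 18.1 and 19.2 CPM in Scramble 1, 2 and 3 (log2 fold change -0.94, adjusted p = 0.000341 by edgeR). *RASA1*, which switches RAS off, fell by 0.67 on the log2 scale. *CIC*, the repressor of *ETV4* and *ETV5*, had 90.8, 106 and 83.9 CPM in LEADR-KD 1, 2 and 3, against 142, 130 and 117 CPM in Scramble 1, 2 and 3, with a log2 fold change of -0.47 (adjusted p = 0.00762 by edgeR) and no overlap between groups.

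**Figure D5:**
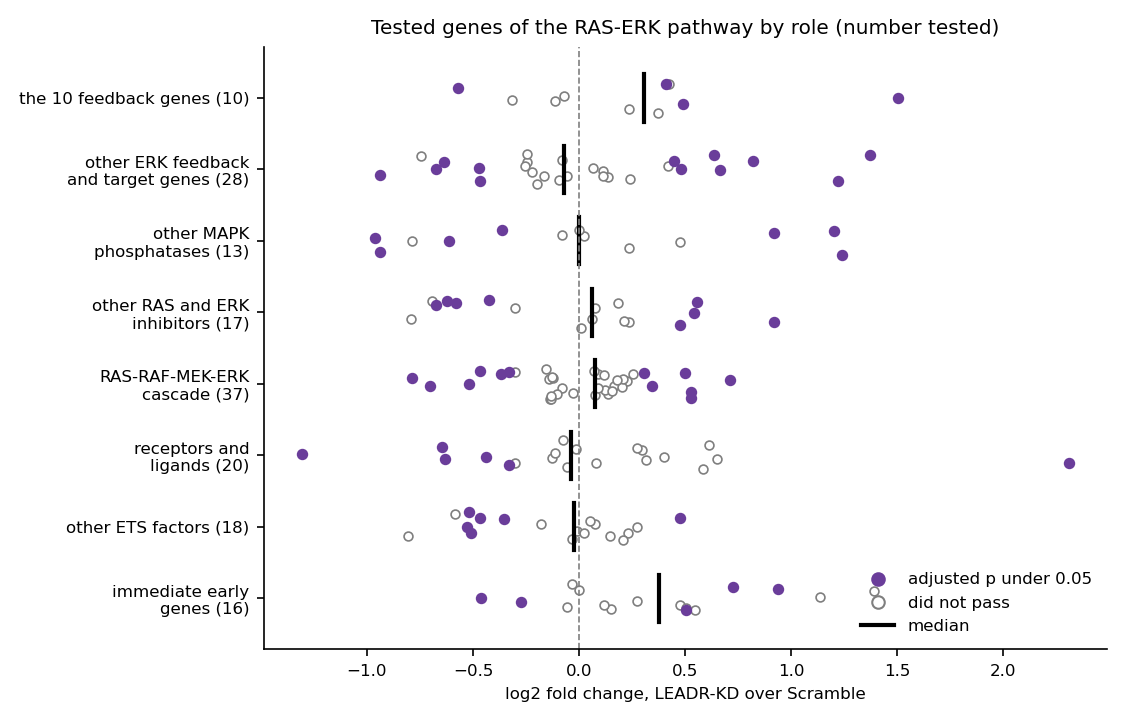
Log2 fold change, LEADR-KD over Scramble, of the 10 feedback genes and of the tested genes of 7 pathway lists (number tested in brackets), filled for an adjusted p under 0.05, with a black bar at each median. Filled points lie on both sides of 0 in every list, and the medians run between -0.07 and 0.37.

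Of 13 DUSP genes outside the 10, listed as MAP kinase phosphatases and with *DUSP7* again among them, 3 rose and 4 fell. These are 23.1% and 30.8%, beside 12.2% and 12.1% of all tested genes, and the median was 0.00. *DUSP10* and *DUSP8*, whose products act mainly on JNK and p38, rose by 1.24 and 1.2 on the log2 scale, and *DUSP3*, whose product acts on ERK and JNK, by 0.92, at 92.5, 110 and 105 CPM in LEADR-KD 1, 2 and 3, against 50.9, 54.6 and 57.2 CPM in Scramble 1, 2 and 3 (adjusted p = 4.67e-05 by edgeR). *DUSP18* had a log2 fold change of -0.96. Of 17 other RAS and ERK inhibitors, 4 rose and 4 fell, 23.5% in each direction. *PEA15*, which keeps ERK in the cytoplasm, rose by 0.54 and *ERF*, an ETS repressor that ERK expels from the nucleus, by 0.47. *LZTR1*, an adaptor for the degradation of RAS proteins, had a log2 fold change of -0.62 and *DAB2IP*, which switches RAS off, of -0.58.

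Of 37 genes of the cascade itself, 6 rose and 6 fell, 16.2% in each direction, beside 12.2% and 12.1% of all tested genes. *MAPK3*, the ERK1 gene, had 44.8, 48.6 and 43.1 CPM in LEADR-KD 1, 2 and 3, against 34.6, 30.9 and 29.2 CPM in Scramble 1, 2 and 3 (log2 fold change 0.53, adjusted p = 0.00373 by edgeR). *LAMTOR3*, a scaffold for MEK1 and ERK1, and *HRAS* rose by 0.53 and 0.50, whereas the adaptor gene *GAB2*, the RSK kinase gene *RPS6KA2* and *ELK4*, a partner of SRF, had log2 fold changes of -0.79, -0.70 and -0.47. Of 16 immediate early genes 3 rose (18.75%) and 2 fell (12.5%), with a median of 0.37. *CYR61* rose by 0.94, and *BTG2*, an antiproliferative gene, had a log2 fold change of -0.46.

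Of 20 receptors and ligands upstream of RAS, 1 rose (5.0%) and 5 fell (25.0%), beside 12.2% and 12.1% of all tested genes. *EREG*, which encodes a ligand of the EGF receptor, rose at low levels, with 39, 80 and 64 counts in LEADR-KD 1, 2 and 3, against 10, 9 and 18 counts in Scramble 1, 2 and 3 (log2 fold change 2.31, adjusted p = 0.00138 by edgeR). *FGFR3*, which RT4 cells carry as a fusion with *TACC3*, had 212, 237 and 211 CPM in LEADR-KD 1, 2 and 3, against 344, 332 and 359 CPM in Scramble 1, 2 and 3. The groups were far apart (log2 fold change -0.65, adjusted p = 0.000216 by edgeR), and counts per gene do not separate the fusion from the full-length transcript. Of 18 other ETS genes 1 rose (5.56%), *ERF*, and 5 fell (27.8%), among them the repressor gene *ETV6* (-0.53) and the epithelial factor gene *ELF3* (-0.51).

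Several calls in these lists turned on single libraries. *JUN*, at a log2 fold change of 0.73, did not pass without LEADR-KD 2 (adjusted p = 0.126), LEADR-KD 3 (0.0794), Scramble 1 (0.0860) or Scramble 2 (0.0609), and *JUNB*, at 0.51, did not without LEADR-KD 2 (0.140), LEADR-KD 3 (0.0658) or Scramble 1 (0.0977). *RRAS*, at 0.71, was lost without LEADR-KD 2 (0.0801), LEADR-KD 3 (0.135), Scramble 1 (0.0978) or Scramble 2 (0.116), and *KLF4*, at 0.67, without LEADR-KD 2 (0.0501), LEADR-KD 3 (0.0747) or Scramble 2 (0.0734). The call of *RASA2* (0.56) held with each single library left out, but was lost without both libraries numbered 1 (0.0776) and with library totals only (0.0515). *MAFF* (-0.64) and *TGFA* (-0.44) were lost without Scramble 2, at adjusted p of 0.0570 and 0.0546. *ELK3* (-0.52) held only without LEADR-KD 1 among the single libraries and *SRF* (-0.27) only without Scramble 1, with adjusted p up to 0.137 and 0.145 in the other cases. *NF1* (-0.42), which has pseudogene copies that may share its reads, was lost without LEADR-KD 2 (0.0979), LEADR-KD 3 (0.117), Scramble 1 (0.115) or Scramble 3 (0.0549). *DUSP16* (-0.36) was lost without LEADR-KD 2 (0.0635), LEADR-KD 3 (0.115), Scramble 1 (0.0935) or Scramble 2 (0.114), and *DUSP22* (-0.61) in each case but that of Scramble 2, with adjusted p up to 0.157. *EGF* (-1.30) was lost without LEADR-KD 1 (0.0768), LEADR-KD 2 (0.0622), LEADR-KD 3 (0.0581) or Scramble 3 (0.136), and *NRG4* (-0.63) without LEADR-KD 1 (0.0554), LEADR-KD 2 (0.113), Scramble 1 (0.0843) or Scramble 3 (0.0946).

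The ACCCAGT match was set beside these calls as a description. It was present in 24.1% of the protein-coding genes called lower and in 8.79% of those called higher, against 11.8% of all tested. In the 7 lists 19 tested genes held it, of which 12 were among the 27 lower genes and 4 among the 23 higher genes. The lower genes with a match included *DUSP7*, *RASA1*, *LZTR1*, *DAB2IP*, *NF1* and *FGFR3*, and the higher genes *EREG*, *DUSP8* and *SH2B3*. Of the 3 feedback genes that held it, *SPRED2* fell, *SPRED1* had a log2 fold change of -0.32 that did not pass and *SPRY4* one of 0.37 that did not pass. *DUSP4*, *ETV4* and *ETV5* held neither ACCCAGT nor ATATAGG. The median 3′ UTR length was 1698 bases for the genes called lower, 1720 bases for those called higher and 1348 bases for all tested. The part of these matches in the result was not tested.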

How the data were processed

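Poly(A) RNA of RT4 cells was measured in 6 libraries, 3 with the *LEADR* siRNA and 3 with the scramble siRNA, grouped by the submitters' labels. The authors deposited raw gene counts. Their tools in the submitters' processing notes are HISAT2 2.0.5 and, for counting, featureCounts 1.5.0-p3, with hg19 as the build, but the methods of the study name Salmon. The authors also deposited FPKM values, each count divided by gene length and by 1 constant per library. A further table holds the log2 fold change, p-value and adjusted p-value of the authors' own DESeq2 1.20.0 comparison, and was not used. Use of the strand in counting is not given in the sources.

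Counts were scaled by TMM and filtered by filterByExpr (minimum count 10) in edgeR 4.0.16 under R 4.3.3, which left 14178 genes. The quasi-likelihood test compared LEADR-KD with Scramble, with no covariate. P values were adjusted over all 14178 genes by the Benjamini-Hochberg method and a gene was called at an adjusted p under 0.05. Each SE was taken as the absolute log2 fold change over the root of its F statistic, and values are mean ± SD. The biological coefficient of variation was 12.6%. The steps were run on simulated counts with known changes and the same dispersion for every gene. That run does not bear on how stable the calls are in these data.

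The alternatives were DESeq2 1.42.0, scaling by its size factors (RLE) or by library totals, no filter on low counts or a mean count of at least 50, limma 3.58.1 on log2(FPKM + 1) or log2(FPKM + 0.1), the replicate number as a block, each library left out, and, added after seeing the mitochondrial shares, both libraries numbered 1 left out. The 10 genes, the lists and the tests were chosen with earlier results of these data known. Named in the text are all 10 genes, *MIR205HG*, the genes that overlap a member, and up to 4 called genes per pathway list and direction, those with the largest change. Marker genes are named where they were at 0 or made up most of a sum. The 3′ UTRs are those of GENCODE v44lift37 canonical transcripts on GRCh37. The result of 1 marker list is not reported here.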

Additional observations from a re-analysis of the deposited data

How the results depend on the processing

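Of the 150 comparisons of the 10 genes with an alternative, 122 kept the direction and the side of the threshold, 10 lost a call, 14 gained one and 4 changed sign. The changes of sign were those of *SPRY1* and *SPRY2*, neither called, whose log2 fold changes ran between -0.32 and 0.10 and between -0.25 and 0.15 when each library was left out. *MIR205HG* stayed lower and called in all 15. The number of the 10 genes called higher, 3, became 5 with DESeq2, 5 with no filter on low counts, 1 with library totals only, 2 to 4 when each library was left out and 2 without both libraries numbered 1. The number called lower, 1, became 2 with library totals only and 1 to 2 when each library was left out, *SPRED1* being added without LEADR-KD 1 or Scramble 3. Over all tested genes, 1736 higher genes became 1085 with library totals only and 1188 to 1457 when each library was left out, and 1719 lower genes became 1142 to 1472, the lowest without LEADR-KD 2. In the 7 lists, 23 higher genes became 15 with library totals only and 17 to 24 when each library was left out, and 27 lower genes became 16 to 23, the lowest without LEADR-KD 2. Of 598 comparisons of 40 named genes of these lists, 521 kept the call, 77 lost it and 0 changed sign. *EREG* and *EGF* were removed by the filter on a mean count of 50. The cause of these differences was not tested.

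Libraries of the same number were not treated as pairs. Their deviations from the group mean correlated at 0.28, -0.01 and 0.34 for numbers 1, 2 and 3. LEADR-KD 1 and 3 correlated best with the Scramble library of their own number, and LEADR-KD 2 with Scramble 3 (0.09). In both groups the mitochondrial share was highest in the library numbered 1 and lowest in that numbered 3. Whether equal numbers mark a shared batch is not given in the sources. With the number as a replicate block, 5 of the 10 genes were higher and 2 lower, the additions being *DUSP5* (adjusted p = 0.000462 by edgeR), *SPRY4* (0.00316) and, among the lower genes, *SPRED1* (0.00571). Over all genes 2489 were higher and 2365 lower with the block. One count was worth 0.0513 to 0.0626 CPM, and the lowest count of any of the 10 genes was 113.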
